A study of Zea mays with 48 samples.

Results

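Maize roots after 24 h of tunicamycin were compared with roots taken at 0 h. The comparison rests on 6 of the 24 libraries of a time course, chosen by the names of the count columns, with 3 libraries (I, II and III) for each side. Sequencing ran on lanes 6 and 7, and these libraries gave 11 of the 47 lane samples analysed, because lane 7 of library II at 24 h was not analysed here. All plants were seedlings of the inbred line B73, the maize reference genotype, described as 7 days old and grown in glass bottles. The 24 h group had tunicamycin at 5 µg/ml, and the 0 h group, the start of the same series, had no tunicamycin. Further groups had 3, 6, 12, 36 or 48 h of tunicamycin at the same dose, or a mock treatment of 48 h without it. Each held 3 libraries, and the 24 h values were set against them. The mock samples of lanes 6 and 7 carry different indexes and differently spelled names, so whether they are the same libraries is not shown by the labels. They were joined by library number, which is how the deposited count columns join them.

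Tunicamycin stops the first step of N-linked glycosylation, in which a sugar chain is built on a lipid carrier in the membrane of the endoplasmic reticulum (ER). Without that chain, many secreted and membrane proteins fold poorly and collect in the ER. In plants, the membrane sensor IRE1 then splices the RNA of a bZIP transcription factor, while other bZIP factors are released from the membrane by proteolysis, and together they raise genes for chaperones, folding enzymes and disposal of misfolded proteins. Prolonged stress of this kind is linked to cell death, which the title of the series names as the late phase it studied. The identifiers of the deposited tables are not paired with gene names in the sources used here, so neither those genes nor root marker genes were looked up, and the genes below are grouped by direction, lane, level and length.

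The labels conflict about these libraries. The titles and time entries give 0 h for both lanes of the library named 24I and for lane 6 of 24II, and 3 h for the lanes of 24III. They also give 3 h for lane 7 of the library named 0II and for both lanes of 0III. Groups here follow the library names, which the count columns carry. Only the 48 h treatment has a mock of the same age, so that in 24 h against 0 h, tunicamycin and a further day in the bottle cannot be told apart. Libraries of the 24 h group held 27217665 (I), 7701856 (II) and 16632659 (III) reads, and those of 0 h held 22150200, 16105148 and 24443472.

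The lane 6 samples of all 3 libraries of 24 h stood apart from every other lane sample. On the first principal component of log2 CPM (reads of a gene scaled to library size), which held 20.7% of the variance, they lay between -181.3 and -85.6. The 44 other lane samples, lane 7 of 24 h included, lay between -38.0 and 49.6. The mean length of the gene that a read was assigned to was 4738 to 4971 bp on lane 6 of 24 h, against 5372 to 6795 bp in the 42 lane samples of other groups, and 6089 (I) and 6338 bp (III) on lane 7 of 24 h. Deviations from the mean of all lane samples correlated at 0.241 between the lanes of library I at 24 h and at 0.0657 between those of library III, across genes, against 0.377 to 0.863 between the lanes of the libraries of other groups. Lane 7 of library I at 24 h matched lane 7 of a 12 h library best, at 0.576, and lane 7 of library III matched lane 7 of a 36 h library best, at 0.516. These 2 samples correlated with each other at 0.0113. Lane 7 of library III correlated with the closer lane 7 sample of its own group at 0.300 at 0 h and at -0.187 at 12 h. Lane 6 of the 24 h libraries held 9251413 (I), 7701856 (II) and 2020493 (III) reads, against 17966252 (I) and 14612166 (III) on lane 7. Lane samples of the other groups held 3862586 to 26076444 reads, so that on lane 6 only library III lay below their range. The shallowest lane sample of the other groups, lane 7 of library II at 36 h, had 3862586 reads. It lay at 5.11 on the first component, with a mean gene length of 6271 bp per read. Values by lane stand beside the main results on 24 h against 0 h, and the part of depth in the lane difference was not tested.

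**Figure D1:**
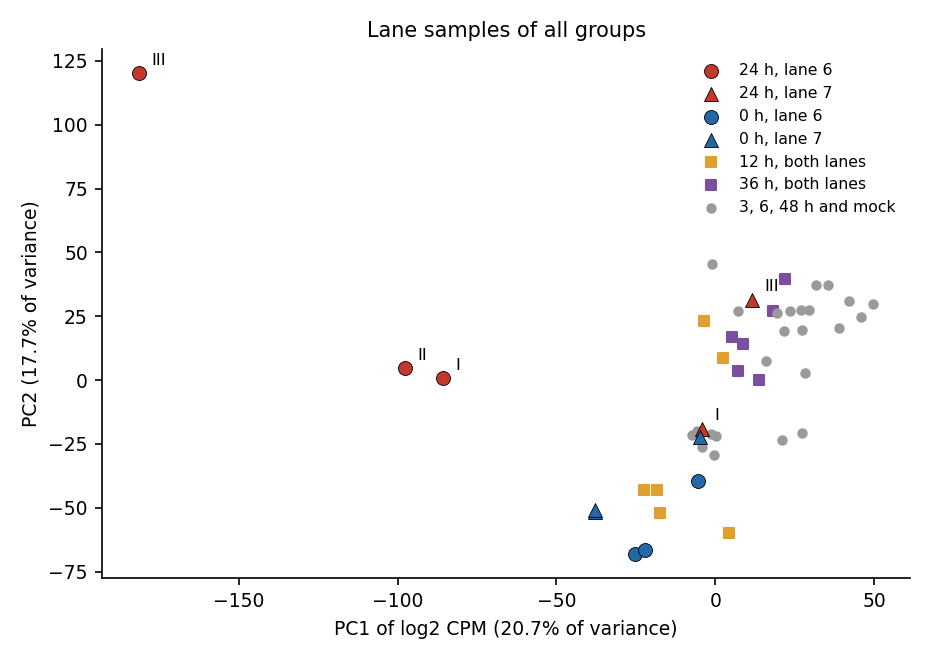
First (x axis) and second (y axis) principal components of log2 CPM over all genes, 1 point per lane sample; Roman numerals give the library at 24 h. The 3 lane 6 samples of 24 h lie at -85.6 or below on the first component, and the lane 7 samples of the same group lie among the other groups.

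With lanes summed, 2375 of 23753 genes were higher at 24 h than at 0 h (10% of the genes tested) and 1941 were lower (8.17%), together 18.2%, by edgeR's quasi-likelihood test at a Benjamini-Hochberg adjusted p below 0.05. The median log2 fold change of the risen genes was 0.83 and that of the fallen genes -0.73, beside 0.05 over all genes. Of the risen genes, 861 rose at least 2-fold and 148 at least 4-fold, and of the fallen genes 556 and 144 fell by as much. The 3 libraries of 24 h lay wholly above those of 0 h for 2098 of the risen genes and wholly below for 1882 of the fallen genes. Over all genes, that held for 15.7% upwards and 15.6% downwards, together 31.3%. All 5 lane samples of 24 h lay above all 6 of 0 h for 659 of the risen genes and below for 762 of the fallen genes, against 3.44% and 4.04% of all genes. Nothing in the labels shows that the libraries came from separate bottles, so the p-values measure the spread between these libraries. In whole roots, fewer cells of a type and less RNA per cell cannot be told apart.

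The count of genes called depended on the lane. On lane 6 alone, 5057 genes were higher (21.3% of those tested) and 5365 lower at 24 h (22.6%), together 43.9%. On lane 7 alone, with 2 libraries of 24 h against 3 of 0 h, 558 were higher (2.35%) and 514 lower (2.16%), together 4.51%. Genes called higher on lane 6 had a median log2 fold change of 1.19 there and of 0.06 on lane 7, and genes called lower on lane 6 had medians of -1.04 there and 0.02 on lane 7. With the 24 h reads taken from lane 7 only and both lanes kept in the other groups, 1782 genes were higher and 1597 lower, of which 1826 were among those called in the same direction with the lanes summed. Lane then differs between the sides, and 7156 genes (30.1%) differed between the lanes within 0 h. The part of lane in these counts was not tested. Without 0 h library I the total was 2382 genes and without 0 h library II it was 2303, against 4316 with all libraries. These libraries lay close together: the mean chi-square per gene between their reads was 3.25 on lane 6 and 1.87 on lane 7, where sampling alone gives about 1, against 16.9 to 27.3 between the lanes of a single 0 h library. At 24 h, libraries I and II differed by 12.1 on lane 6, against 43.6 between the lanes of library I and 74.7 between those of library III. When libraries I and II of each group were summed to 1, 128 genes were higher and 94 lower. With only the 24 h and 0 h libraries in the model, 353 were higher and 394 lower (3.17% together).

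**Figure D2:**
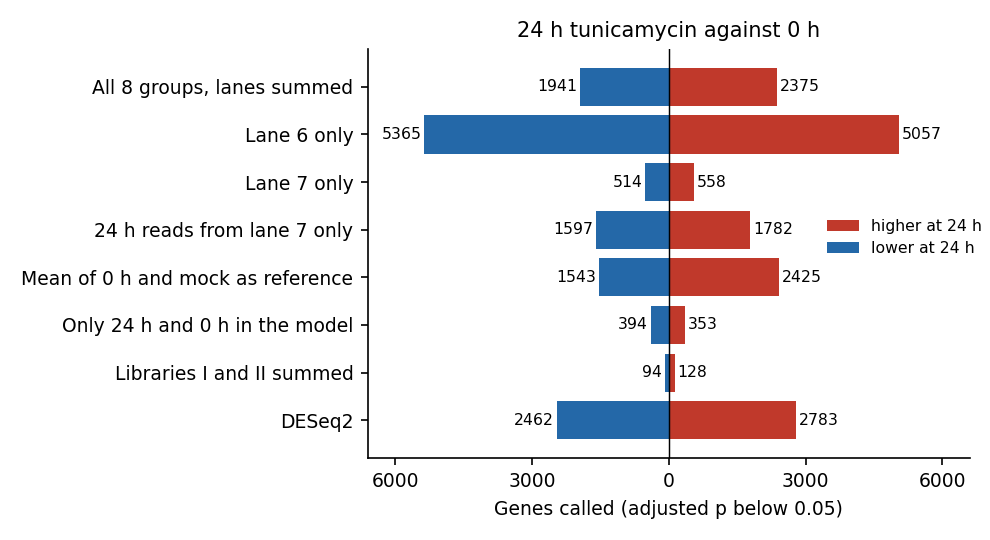
Genes called higher (right) and lower (left) at 24 h than at 0 h, as numbers of genes on the x axis, under 8 ways of processing. Lane 6 alone gave 5057 and 5365 genes, lane 7 alone 558 and 514, and both lanes summed 2375 and 1941.

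How far the lanes share a call was counted gene by gene. Of the 2375 genes that rose with lanes summed, 192 were called higher on both lanes taken apart, 1902 on lane 6 alone, 98 on lane 7 alone and 183 on neither. Of the 1941 that fell, 226 were called lower on both lanes, 1487 on lane 6 alone, 78 on lane 7 alone and 150 on neither. The fold change on lane 7 had the same sign in 83.8% of the genes that rose and 89.6% of those that fell, although 4 of the risen genes were called lower there. The summed counts contain the lane 7 reads, so part of this agreement in sign was fixed in advance. A further 129 genes were called lower on lane 6 and higher on lane 7, and 65 were called higher on lane 6 and lower on lane 7. The first of these groups had a median length of 10660 bp and the other of 2582 bp, beside 3513 bp over all genes.

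Gene length tracked the difference between the lanes. Genes were split into 3 classes of equal number by length. In the shortest class (132 to 2331 bp) the median log2 fold change of 24 h against 0 h was 0.31 on lane 6 and -0.13 on lane 7. In the longest class (4922 to 128402 bp) it was -0.32 on lane 6 and 0.16 on lane 7. On lane 6, 2111 of the shortest genes were higher and 1050 lower, and 1023 of the longest were higher and 2877 lower. On lane 7 the split ran the other way, with 67 of the shortest higher and 257 lower, and 341 of the longest higher and 77 lower. Mean gene length per read on lane 7 was 5387, 5374 and 5895 bp at 0 h (I, II, III). At 24 h it was 6089 (I) and 6338 bp (III), within the 5372 to 6795 bp of the other groups. Both sides enter the trend on lane 7, and the part of each was not tested. With lanes summed, the medians came to 0.10 in the shortest class and 0.00 in the longest, and the shares called lay closer together (9.95% higher and 8.20% lower in the shortest, 8.22% and 8.39% in the longest). The part of the lane samples' depth in this trend was not tested.

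**Figure D3:**
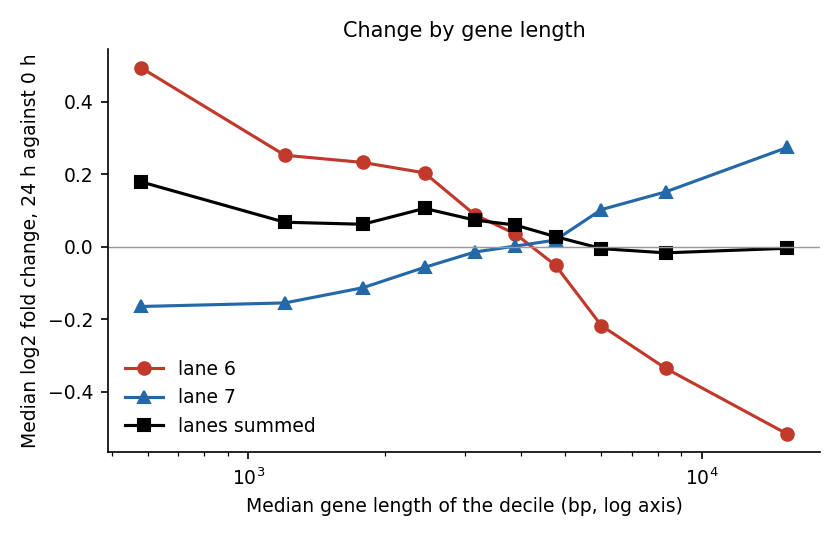
Median log2 fold change of 24 h against 0 h (y axis) in 10 classes of equal gene number by gene length (x axis, log scale), for lane 6, lane 7 and both lanes summed. In the shortest class the median was 0.49 on lane 6 and -0.17 on lane 7, and in the longest class -0.52 and 0.27.

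The level of a gene at 0 h was also set beside its direction. Of the 2135 genes above 100 CPM at 0 h, 133 were higher at 24 h (6.23%) and 366 lower (17.1%), with 471 higher and 689 lower on lane 6 alone, and 40 higher and 137 lower on lane 7 alone. Of the 1105 genes under 1 CPM at 0 h, 129 were higher (11.7%) and 4 lower (0.362%), so that the share of rises was near that over all genes and the share of falls below it. These shares cannot show how genes of low level respond. A gene under 1 CPM at 0 h has little room for a called fall. Every gene tested had 152 reads or more over the series, so a gene with hardly any at 0 h had them in other groups. Because 0 h is a side of the comparison, genes that happen to be high there lean towards a fall and low ones towards a rise. The classes were therefore drawn again by the mean of all 24 libraries, a choice made after seeing the data. By that measure, 207 of 2155 genes above 100 CPM were higher (9.61%) and 279 lower (12.9%), and 44 of 978 genes under 1 CPM were higher (4.50%) and 45 lower (4.60%). On single lanes the counts for the genes under 1 CPM by that measure were 106 higher and 84 lower on lane 6, and 3 higher and 17 lower on lane 7. Among genes above 100 CPM the falls outnumbered the rises by either measure with lanes summed, whereas among genes under 1 CPM the counts depended on the measure and the lane.

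On both lanes taken apart, 192 genes were called higher at 24 h (0.808% of all genes) and 227 lower (0.956%). All but 1 of the 227 were also called with lanes summed. Lane 6 alone called 21.3% of the genes tested higher and 22.6% lower, so unrelated lane calls would also share genes. The lanes carry the same library names, so a call on both is no independent repeat. The 192 and 227 genes were picked from the values of this comparison, and their size in it is a description. For the 192 genes the log2 fold change had a median of 1.28 with lanes summed, 1.43 on lane 6 and 1.17 on lane 7, and 136 of them rose at least 2-fold. For the 227 genes the medians were -1.58, -1.50 and -1.63, and 174 fell at least 2-fold. The 192 genes took up 2.77%, 2.86% and 2.45% of all reads in the 24 h libraries (I, II and III), against 0.903%, 0.888% and 0.843% at 0 h. The 227 genes took up 0.968%, 0.963% and 0.849% at 24 h, against 2.15%, 2.18% and 2.07% at 0 h. Of the 192 genes, 47 came from the shortest length class, 71 from the middle one and 74 from the longest, and of the 227 genes 127, 67 and 33. The median length was 3865 bp for the 192 genes and 2052 bp for the 227. The lane 7 samples also had more falls than rises among short genes, and the part of that trend in these lengths was not tested.

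Levels at the other times place these genes within the series. Both sets were chosen by their values at 0 h and 24 h. A place of any other group between those levels, the mock included, was therefore partly fixed in advance. The median CPM of the 192 genes was 36.1, 44.3 and 37.6 at 24 h, against 15.2, 14.9 and 18.7 at 0 h. The 3 h libraries had medians of 25.8, 26.5 and 30.0 CPM for these genes and the 6 h libraries 29.7, 30.2 and 25.7 CPM. Their 3 libraries at 12 h had medians of 32.3, 32.8 and 30.9 CPM, those at 36 h 30.4, 29.7 and 31.2 CPM, and those at 48 h 35.3, 31.3 and 33.5 CPM. The mock libraries had 24.0, 23.1 and 23.9 CPM, above all 3 of 0 h and below every tunicamycin library from 3 h to 48 h. The median CPM of the 227 genes was 12.1, 12.7 and 10.9 at 24 h, against 31.4, 32.8 and 31.9 at 0 h. At 3 h it was 20.2, 19.2 and 16.4 CPM and at 6 h 12.3, 11.3 and 14.98 CPM, so that the 6 h libraries overlapped those of 24 h. At 12 h it was 18.3, 17.3 and 20.9 CPM, at 36 h 15.5, 15.9 and 9.91 CPM, and at 48 h 15.4, 12.4 and 16.95 CPM. The mock had 22.8, 25.2 and 13.8 CPM, libraries I and II lying above all of these tunicamycin libraries and library III within their range.

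**Figure D4:**
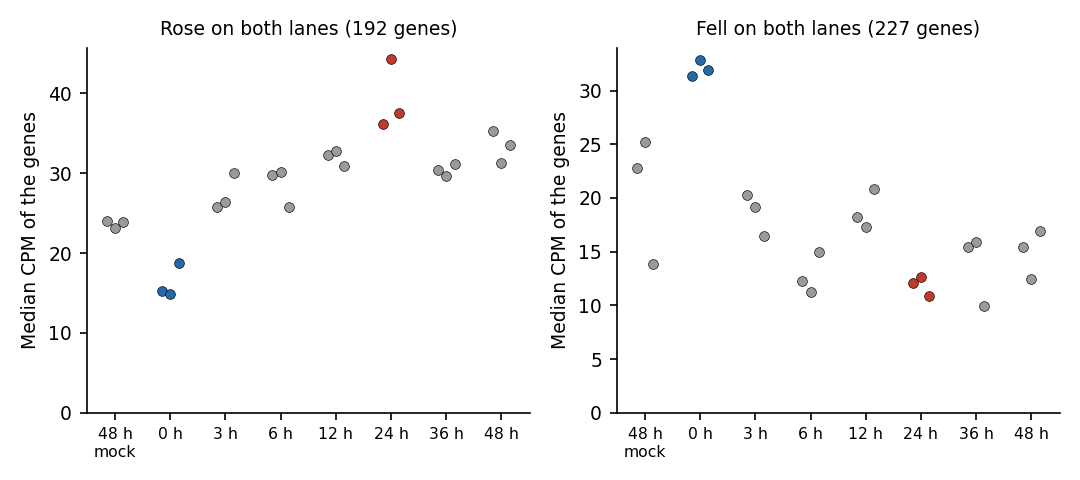
Median CPM (y axis, from 0) of the 192 genes called higher and the 227 called lower at 24 h than at 0 h on both lanes, 1 point per library, by group (x axis); red marks 24 h and blue 0 h. The mock medians of the 192 genes, 23.1 to 24.0 CPM, lie between those of 24 h and 0 h, a place that the choice of genes partly fixed in advance.

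A comparison that shares no library with 24 h against 0 h is that of 48 h tunicamycin with the mock of the same age. In the same model, 80 genes were higher at 48 h than in the mock (0.337% of all genes) and 32 lower (0.135%), together 0.472%. Among the 192 genes that rose on both lanes at 24 h, 52 were among the 80, which is 27.1% of the 192 genes and 65.0% of the 80, and none was among the 32. Among the 227 genes that fell, 15 were among the 32, which is 6.61% of the 227 and 46.9% of the 32, and none was among the 80. The median log2 fold change at 48 h against mock was 0.48 for the 192 genes and -0.43 for the 227, beside 0.00 over all genes. Of all 2375 genes that rose with lanes summed, 68 were among the 80, which is 2.86% of the 2375 and 85.0% of the 80. Their median log2 fold change at 48 h against mock was 0.13. Of the 1941 that fell, 19 were among the 32 (0.979% of the 1941 and 59.4% of the 32), with a median of -0.15.

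The genes named next were chosen so that no library or lane sample of 24 h overlaps one of 0 h, and that separation is no finding about them. The largest rise was that of Zm00001d049068, a gene of 887 bp in the recovered lengths. It stood at 108.7, 114.4 and 50.2 CPM in the 24 h libraries, in the order I, II, III, against 0.461, 0.127 and 0.121 CPM at 0 h. By lane, the 24 h values were 116.4, 114.4 and 49.0 CPM on lane 6 and 104.3 (I) and 50.8 (III) on lane 7, so that library III was the low one on both lanes. The log2 fold change was 8.53 (SE 0.646, edgeR adjusted p = 1.83e-07), a size that rests on 15 reads in all 3 libraries of 0 h. In the mock libraries the gene stood at 0.338, 0.393 and 0.126 CPM, and 24 h against mock gave a log2 fold change of 8.28 (edgeR adjusted p = 1.63e-07). The 3 h libraries averaged 0.436 ± 0.176 CPM and the 6 h libraries 5.73 ± 0.288 CPM. Later means were 73.3 ± 34.9 CPM (12 h), 91.1 ± 35.5 (24 h), 55.7 ± 17.7 (36 h) and 43.4 ± 22.2 (48 h; SD, n = 3 each). The means at 12, 24 and 36 h were the 3 highest, but 24 h did not differ from 12 h (log2 fold change 0.31, adjusted p = 0.696) or from 36 h (0.71, adjusted p = 0.255) beyond the spread in edgeR's test.

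Zm00001d043574, of 2216 bp, had the second largest rise. It stood at 102.7, 156.6 and 74.7 CPM in the 24 h libraries, against 0.185, 0.381 and 0.848 CPM at 0 h, where the 3 libraries held 31 reads together. Lane 6 of 24 h was higher than lane 7, with 155.0 against 77.1 CPM in library I and 214.2 against 61.6 CPM in library III. The log2 fold change was 7.81 (SE 1.27, edgeR adjusted p = 0.000716), 8.22 on lane 6 and 7.39 on lane 7. The mock libraries were uneven, with 1.10, 0.471 and 19.7 CPM, and 24 h against mock gave 3.97 (edgeR adjusted p = 0.0209), but 3.37 with an adjusted p of 0.17 on lane 7 alone. At 3 h the libraries were uneven as well, with 13.6, 15.7 and 150.5 CPM. Later means were 61.4 ± 24.0 CPM (12 h), 111.4 ± 41.6 (24 h), 77.0 ± 25.1 (36 h) and 80.3 ± 10.9 (48 h; SD, n = 3 each). Neither 12 h nor 36 h differed from 24 h beyond the spread (edgeR adjusted p = 0.598 and 0.717).

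The largest fall was that of Zm00001d037894, of 1055 bp, and it rested partly on 1 library. It stood at 1.26, 3.49 and 7.61 CPM in the 24 h libraries, against 44.9, 49.9 and 315.1 CPM at 0 h, library III being the high one on both sides. The log2 fold change was -5.06 (SE 1.39, edgeR adjusted p = 0.0168). Without 0 h library III it was -3.53 with an edgeR adjusted p of 0.0706, and on lane 7 alone -4.96 with an adjusted p of 0.0757, so the call was lost in both. On lane 6 alone it was -4.79 with an edgeR adjusted p of 0.00854, which kept the call. The mock libraries stood at 1.82, 1.30 and 17.1 CPM, and 24 h against mock gave -0.71 (edgeR adjusted p = 0.759). The 24 h libraries thus overlapped those of the mock. Library III was also the high one at 6 h, with 197.7 CPM against 11.4 and 10.3 in libraries I and II.

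Zm00001d052041, of 816 bp, had the second largest fall. It stood at 0.631, 1.60 and 0.504 CPM in the 24 h libraries, against 23.9, 29.03 and 7.92 CPM at 0 h. The 24 h lane samples held 3 to 11 reads each for this gene and those of 0 h 72 to 372. The log2 fold change was -4.68 (SE 1.01, edgeR adjusted p = 0.00421), -3.41 on lane 6 and -5.92 on lane 7. In the mock the gene stood at 4.23, 3.42 and 0.419 CPM, so that library III of the mock lay below all of 24 h, and 24 h against mock gave -1.77 (edgeR adjusted p = 0.263). Mock against 0 h gave -2.91 (edgeR adjusted p = 0.0725). Between 24 h and its neighbours, the difference was -3.05 against 12 h (edgeR adjusted p = 0.0851) and -1.09 against 36 h (adjusted p = 0.492).

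**Figure D5:**
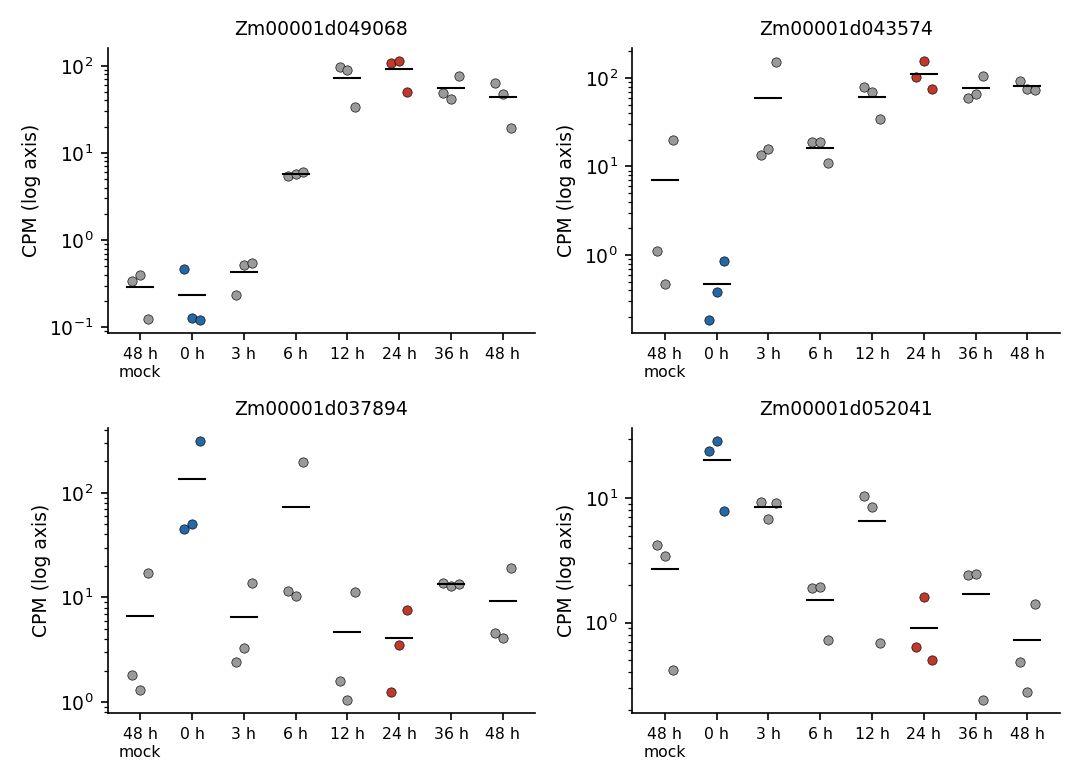
CPM (y axis, log scale) of the 2 largest rises and the 2 largest falls at 24 h against 0 h, 1 point per library, by group (x axis), with the mean as a line; red marks 24 h and blue 0 h. The genes that rose stood between 50.2 and 156.6 CPM at 24 h and below 1 CPM at 0 h, and for the genes that fell mock libraries overlap those of 24 h.

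Against the mock, which is a day older than the 24 h group, 1131 genes were higher at 24 h (4.76%) and 511 lower (2.15%), together 6.91%, with median log2 fold changes of 1.04 and -0.70. Called on both lanes taken apart were 77 genes higher and 25 lower. On lane 6 alone, 4663 genes were higher and 4908 lower. On lane 7 alone, 87 were higher and 37 lower, with a model of the mock and 24 h groups alone 49 and 15 (0.271%), and with the 24 h reads from lane 7 only 107 and 57. The total of 1642 genes became 305 without 24 h library II, which has lane 6 alone, and 4207 without 24 h library III, and 815, 496 and 625 without mock library I, II or III. This comparison shares the 24 h libraries with 24 h against 0 h. Against the mean of 0 h and mock, in the same model, 2425 genes were higher (10.2%) and 1543 lower (6.5%), together 16.7%.

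The comparisons with neighbouring times differed between the lanes. Against 12 h, 474 genes were higher and 251 lower at 24 h (3.05% of all genes together). Against 36 h, 1717 were higher and 946 lower (11.2%). On lane 7 alone, edgeR's quasi-likelihood test called 0 genes in either comparison, with 1151 genes at an unadjusted p below 0.05 against 12 h and 771 against 36 h. On lane 6 alone it called 9610 genes against 12 h and 10386 against 36 h. With the 24 h reads from lane 7 only the counts were 0 and 0 again, with 2598 and 2561 genes at an unadjusted p below 0.05. DESeq2, run on the summed lanes, called 1783 genes against 12 h and 3844 against 36 h. Leaving out a library moved the count against 12 h to 1400, 38 or 2348 (24 h library I, II or III) and to 46, 5 or 1337 (12 h library I, II or III). The count against 36 h moved to 219 and 6106 without 24 h library II or III and to 1478 and 142 without 36 h library I or II.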

How the data were processed

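RNA reads from roots were counted per gene in 24 libraries. The deposited table holds whole-number counts for 23753 genes. A further deposited table gives RPKM per lane (reads per kilobase of gene, scaled to depth), computed by the authors. Per the submitters' processing notes, the tools were STAR, featureCounts and edgeR, without versions. The sources used here do not give the genome build, the strand setting or how reads of gene copies were assigned. Gene lengths and the reads of each lane were recovered from the RPKM: 100% of 1116391 lane values were whole within 0.001 reads, and lane reads summed to the counts with a largest difference of 0.

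The counts were tested in R 4.3.3 with edgeR 4.0.16 (quasi-likelihood test, TMM scaling, 1 model of 8 groups of 3 libraries, Benjamini-Hochberg adjusted p below 0.05). The low-count filter removed 0 genes, and the table lists none with fewer than 152 reads in all. Standard errors were taken from each fold change and its F statistic. CPM is relative to TMM-scaled library size, and log2 CPM for the principal components used a prior count of 2. The steps were tested on simulated libraries, drawn independently and without lanes. That test covers neither the lane difference nor the closeness of libraries I and II. DESeq2 1.42.0 was an alternative, besides other scaling, filters, groups in the model, single lanes, omitted libraries and a replicate block. Further alternatives, chosen after seeing the data, took the 24 h reads from lane 7 only, summed libraries I and II, or set 24 h against the mean of 0 h and mock.

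The comparison, gene groups and rules were chosen with earlier results of these data known. Genes printed by identifier are the 2 largest rises and 2 largest falls among called genes with a mean of at least 5 CPM whose libraries and lane samples do not overlap between 24 h and 0 h; 539 risen and 613 fallen genes qualified. Of 23753 identifiers, 0 matched the 49888 genes of the reference table, so the lists by gene name were not used, and no function, position or sequence is given. Lane 7 of library II at 24 h was not analysed here. Its label states that few reads led to its exclusion.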

Additional observations from a re-analysis of the deposited data

Results flagged for a closer look

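The lane difference at 24 h differed from that at 0 h. The change from lane 7 to lane 6 within libraries, set between the groups in edgeR's quasi-likelihood test, differed for 11184 genes (47.1%). Within the 24 h group 11579 genes differed between lanes (48.7%), and within the 0 h group 7156 (30.1%). The other groups ran from 432 genes in the mock (1.82%) to 5787 at 12 h (24.4%). The cause was not tested.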

How the results depend on the processing

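The total of genes called at 24 h against 0 h, 4316, moved by over 1.5 times under 4 alternatives besides those that omit a library. It was 10422 on lane 6 only, 1072 on lane 7 only, 747 when the other groups were left out, and 222 with libraries I and II summed. The numbers of genes called in the same direction in both fits were 3807, 594, 701 and 222. Leaving out a library gave 2303 to 4576. Of these 6 totals, 2 also moved by over 1.5 times: 2382 without 0 h library I and 2303 without 0 h library II. DESeq2 called 5245 genes, RLE scaling 4372, and the 24 h reads from lane 7 only 3379. The biological coefficient of variation was 0.320 for the 24 h libraries alone, 0.205 for 0 h alone and 0.237 for all groups. Against the mock, 1642 genes became 9571 on lane 6 only, 124 on lane 7 only, 64 with the other groups left out, 39 with libraries I and II summed, 164 with the 24 h reads from lane 7 only and 2857 with DESeq2, and 305 to 4207 without a library. Against 12 h, 725 genes became 9610 on lane 6 only, 1783 with DESeq2, and 0 on lane 7 only, with the 24 h reads from lane 7 only, with libraries I and II summed (1768 at an unadjusted p below 0.05 in edgeR) and with the other groups left out (2392), and 5 to 2348 without a library. Against 36 h, 2663 genes became 10386 on lane 6 only, 3844 with DESeq2, 3 with libraries I and II summed, and 0 on lane 7 only, with the 24 h reads from lane 7 only and with the other groups left out (3927 at an unadjusted p below 0.05 in edgeR), and 142 to 6106 without a library. The cause was not tested. The block on replicate number gave 5200 genes at 24 h against 0 h, 2387 against the mock, 1051 against 12 h and 3411 against 36 h. Numbers I and II are not shown to pair samples, whereas library III deviated alike in some groups. Same-numbered deviations at 24 h and 0 h correlated at 0.017, 0.146 and 0.206 (I, II, III), against at most 0.013, 0.152 and -0.166 with other numbers. For library III at 24 h the same-numbered value was 0.375 with the mock and 0.484 with 12 h, against at most -0.319 and -0.334. With 36 h it was -0.107, against at most 0.118. Deviations were taken from each group's own mean, so a positive same-numbered value pulls those with other numbers down. The negative values with other numbers are thus no separate result. The main model had no term for library number. Zm00001d049068 kept its call in all alternatives run. Zm00001d043574 lost it with libraries I and II summed (7.48, edgeR adjusted p = 0.0528), and so did Zm00001d052041 (-4.64, adjusted p = 0.129). Zm00001d037894 also lost it with those libraries summed (-5.34, edgeR adjusted p = 0.149), against the mean of 0 h and mock (-2.89, adjusted p = 0.108), and without 24 h library I (-4.55, adjusted p = 0.0564) or II (-5.00, adjusted p = 0.0563), and DESeq2 gave it no adjusted p, whereas the block on replicate number kept it (-4.94, edgeR adjusted p = 0.000154). Depth limits 24 h most, with 2020493 reads in its shallowest lane sample.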
